A study of Strongylocentrotus purpuratus with 191 samples.

Results

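The 63 cultures of purple sea urchin (Strongylocentrotus purpuratus) embryos raised at 15C, of 191 cultures profiled at 12C, 15C and 18C, were used to separate the contributions of mothers and fathers to gene expression and to developmental stage. They were chosen by their temperature label alone. They came from 32 crosses, 16 in each of the blocks numbered 3 and 4, and in each block 4 females (A to D) were mated to 4 males (A to D) in every combination, with 2 cultures per cross. Cross C4 x D4 (the female is named first throughout) had 1 culture. Names repeat between the sexes: the mother A3, for example, is not the father A3. Embryos were cultured in artificial sea water to the mid-gastrula stage, and total RNA was read on a custom panel of an Illumina bead array assay that joins pairs of short oligonucleotides on cDNA. No genotype or strain of the parents was given. Each block had a plate of its own, and the difference between blocks cannot be told apart from that between plates. All effects of parents were therefore taken within block.

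The egg supplies the embryo with stored messenger RNA, protein and yolk, whereas the sperm supplies little besides its genome. Females can thus differ through the egg and through the genes they transmit, and males mainly through the genes they transmit. By the gastrula stage the embryo transcribes its own genome. Networks of transcription factors and signals then direct the skeletogenic cells, gut, pigment cells and ectoderm.

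The authors' normalized values (log2 scale, centred near 0 within a plate) covered 74 genes, each read by 2 to 6 probes. Probe values were averaged for each gene, and then over the cultures of a cross. Values below are deviations of cross values from the mean of the 16 crosses of their block. Before normalization the median panel signal was 9.95 ± 0.301 (SD, n = 32 cultures) in block 3 and 12.2 ± 0.155 (SD, n = 31) in block 4. Markers of the gut (Endo16, gatae), skeletogenic cells (Msp130, SM50), oral ectoderm (gsc, nodal) and pigment cells (gcm) exceeded the negative-control signal on both plates. The excess was 1.27 to 3.23 log2 units in block 3 and 3.44 to 5.12 in block 4, so these markers were present. Alx1, a regulator gene of skeletogenic cells, was not: no probe of Alx1, ficolin, Not or Otp was detected in most cultures of either plate. For Lhx2 and notch none was detected in block 3 and 1 was in block 4. The labels do not say whether the 2 cultures of a cross were separate fertilizations. The number of arrays limits the precision.

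Several of the results below turned on single probes, so the sequences of those probes are shown here as the deposited tables print them. A sequence stands in capitals where that probe alone passed a female, a male or a female-by-male test (adjusted p under 0.05 over all probes), and in lower case otherwise. The 6 probes of tbr, a T-box transcription factor gene of skeletogenic cells, are shown because the male effect on it was the clearest of the panel.
tbr exon 1, probe a: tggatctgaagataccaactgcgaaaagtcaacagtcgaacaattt
tbr exon 1, probe b: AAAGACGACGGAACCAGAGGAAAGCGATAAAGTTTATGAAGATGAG
tbr exon 1, probe c: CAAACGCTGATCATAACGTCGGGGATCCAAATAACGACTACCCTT
tbr exon 4, probe d: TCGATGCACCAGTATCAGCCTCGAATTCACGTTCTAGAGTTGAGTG
tbr exon 6, probe e: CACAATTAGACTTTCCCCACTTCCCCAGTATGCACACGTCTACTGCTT
tbr exon 6, probe f: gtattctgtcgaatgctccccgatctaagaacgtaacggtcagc
For gcm, the glial cells missing factor of pigment cells, the 3 probes of exon 6 are shown because the parental differences lay there.
gcm exon 6, probe a: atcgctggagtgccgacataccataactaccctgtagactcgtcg
gcm exon 6, probe b: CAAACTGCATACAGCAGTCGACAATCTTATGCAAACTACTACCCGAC
gcm exon 6, probe c: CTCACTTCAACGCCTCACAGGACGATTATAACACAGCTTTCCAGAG
The 4 probes of Erg, an ETS-family factor gene of the mesoderm, are shown because its females stood apart in block 3.
Erg exon 1, probe a: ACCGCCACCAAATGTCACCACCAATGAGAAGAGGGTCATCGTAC
Erg exon 2, probe b: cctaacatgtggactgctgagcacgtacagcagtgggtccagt
Erg exon 4, probe c: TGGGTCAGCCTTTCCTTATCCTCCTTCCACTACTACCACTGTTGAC
Erg exon 6, probe d: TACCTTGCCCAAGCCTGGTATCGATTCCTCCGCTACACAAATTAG
The next sequences belong to probes of deadringer (an ARID-domain factor), gataC (a zinc finger factor of mesodermal cells) and Pmar1 (a paired-class homeodomain repressor that acts early in skeletogenic specification).
deadringer exon 1, probe a: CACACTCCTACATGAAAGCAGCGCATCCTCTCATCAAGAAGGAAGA
gataC exon 4, probe a: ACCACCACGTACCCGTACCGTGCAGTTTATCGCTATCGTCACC
gataC exon 4, probe b: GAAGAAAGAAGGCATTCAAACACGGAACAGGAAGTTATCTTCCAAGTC
Pmar1a-b exon 2, probe a: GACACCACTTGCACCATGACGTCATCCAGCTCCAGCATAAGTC
Pmar1a-b exon 2, probe b: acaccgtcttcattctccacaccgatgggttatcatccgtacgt
The last of these sequences was also that of a probe filed under Pmar1c-d, so values of that pair of probes cannot be assigned to 1 copy. Which copies the other Pmar1 probes read was not looked up.

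Culture stage, scored for each culture on a scale that the labels do not state, differed between mothers. In block 4 the crosses of female D4 scored 0.463, 0.470, 0.514 and 0.549, and those of female C4 scored 0.190, 0.270, 0.280 and 0.286. Crosses of female A4 ran from 0.280 to 0.452 and those of B4 from 0.338 to 0.460. Every cross of D4 thus lay above every other cross of its block. In block 3 the crosses of female B3 scored 0.382 to 0.425 and those of C3 0.244 to 0.343, without overlap. Crosses of A3 (0.266 to 0.381) and D3 (0.328 to 0.400) had means between these. Females took up 81.2% of the variance left after block and males (F = 12.96 on 6 and 18 df, permutation p = 9e-05, adjusted over 6 tests p = 0.00054, upper tail of F, 100000 resamples).

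Males did not pass the same test (F = 1.59, permutation p = 0.211, adjusted p = 0.316). Male means ran from 0.325 (B3) to 0.386 (A3) in block 3 and from 0.334 (D4) to 0.396 (C4) in block 4. The SD between the 2 cultures of a cross was 0.0538, and the 63 cultures ran from 0.189 to 0.578. Sampling times, in a unit not stated, ran from 27.65 to 29.05 and differed little between females of a block, from 28.48 (C3) to 28.74 (D3) and from 28.05 (C4) to 28.28 (D4). With sampling time removed the female F was 15.73 (permutation p = 1e-05, the smallest these permutations can give). Without replicate 1 it was 4.27, which missed the threshold (permutation p = 0.0597, adjusted p = 0.179). The spread of stage within a culture passed neither test (adjusted p = 0.409 for females and for males, permutation).

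**Figure D1:**
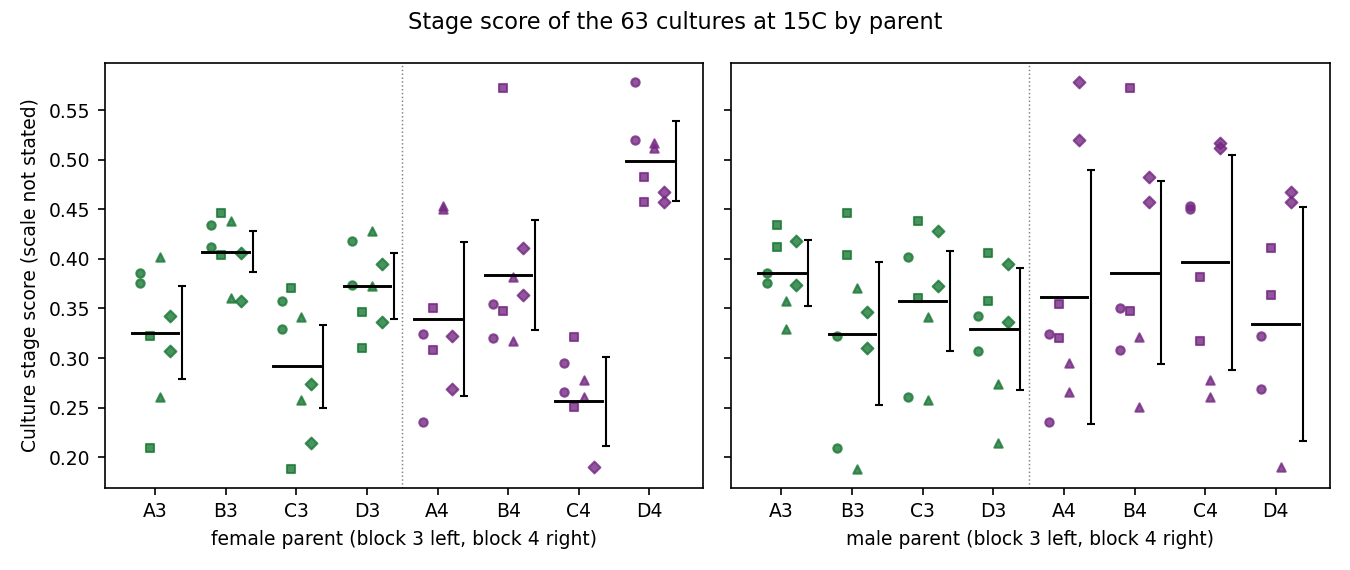
Stage score of each 15C culture (scale not stated) against its female parent (left) and male parent (right). Marker shapes are the 4 mates in the order A to D, black lines are means over 4 crosses and error bars their SD. All cultures of female C4 lie below all cultures of female D4, whereas the offspring of each male of block 4 spread widely.

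Expression of 34 of the 74 genes (45.9%) differed between females and that of 7 (9.46%) between males. These were limma moderated F tests on 32 cross values (6 df, and 18 residual df plus 3.01 prior df). They were Benjamini-Hochberg adjusted over 74 genes, with a threshold of 0.05. Of the genes called, 5 passed both tests, namely tbr, SM30-E, FoxB, nodal and Foxn2-3. At an unadjusted p under 0.05 the counts were 44 and 16. The median F over all genes was 3.01 for females and 1.51 for males. In a variance model over all cultures, the median gene had 15.6% of its variance between females, 1.08% between males, 0% between crosses beyond the parents and 75.6% between cultures of a cross.

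The female count was 1 without replicate 1 (Erg) and 24 without replicate 2, 26 in block 3 alone and 7 in block 4 alone. The male count was 1 without replicate 1 (tbr), 0 in block 3 alone and 2 in block 4 alone. With the 15C means of each plate column removed, no gene passed for females and 1 for males, and with column means over the whole plate 15 and 10 did. Females also differed in the median of the normalized array (F = 4.70, permutation p = 0.00796, adjusted p = 0.0239), with means in block 4 from -0.03 (C4) to 0.11 (D4). That test missed the threshold in block 3 alone (adjusted p = 0.089), in block 4 alone (0.149), without replicate 1 (0.376), without replicate 2 (0.059), on the non-normalized median (0.383) and in 9 of 16 fits that each left out the offspring of 1 parent (permutation). Once array medians were subtracted, 20 genes passed for females, 18 of them among the 34, and 11 for males, 6 of them among the 7. Nkx22, cyclophilin, Dlx, Lim1, Mif-7, Chordin and tbr were among the 16 female calls that did not pass then. Male D4 had an array median of 0.13 against 0.00 to 0.04 for the other males of block 4, and the male test of that median gave an adjusted p of 0.148 (permutation).

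**Figure D2:**
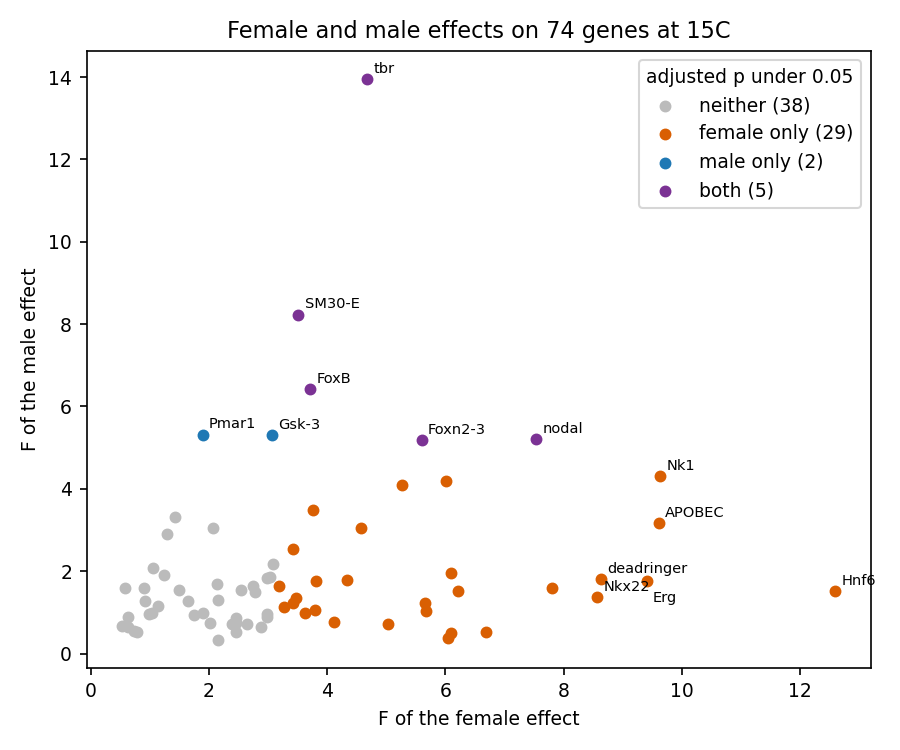
F of the female effect (horizontal) and F of the male effect (vertical) for each of the 74 genes at 15C, coloured by which test passed at an adjusted p of 0.05. Of the genes, 29 passed for females alone and 2 for males alone, and tbr has the highest male F, 13.96.

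Hnf6, a onecut transcription factor gene of the ciliary band, had the highest female F (12.59, adjusted p = 0.000377). Its crosses with female C4 lay at -0.51, -0.48, -0.40 and -0.08, and those with female D4 at 0.22, 0.23, 0.24 and 0.28. The groups did not overlap, and the mean of D4 was 1.53-fold that of C4, the widest female range of the panel in block 4. Against the other 3 females of the block, C4 was lower by -0.49 ± 0.07 (SE, limma, adjusted p = 0.000376 over 592 comparisons of a gene and a female). In block 3 the females spanned 1.20-fold, from A3 to B3, and the gene did not pass in block 3 alone (adjusted p = 0.0557). Hnf6 had 3 probes, of which 2 were detected in block 3 and 1 in block 4, and with detected probes alone its female effect passed (adjusted p = 0.00408).

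Nk1, an NK-family homeobox gene of the ectoderm, followed with an F of 9.63 (adjusted p = 0.00084). Crosses of female D4 lay at 0.01, 0.22, 0.38 and 0.54 and those of C4 at -0.39, -0.29, -0.20 and -0.14. D4 and C4 did not overlap, and they differed 1.46-fold. The block 3 females spanned 1.10-fold, and in block 3 alone the adjusted p was 0.323.

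Erg showed its widest female range in block 3, 1.43-fold. Its crosses with female B3 lay at 0.20, 0.25, 0.27 and 0.51, above all other crosses of that block, and those with D3 at -0.28, -0.19, -0.18 and -0.16. B3 was higher than the other 3 females by 0.41 ± 0.08 (SE, adjusted p = 0.00292). This difference was 0.63 without replicate 1 (adjusted p = 0.0438) and 0.20 without replicate 2, where it missed the threshold (adjusted p = 0.355). All 4 probes placed B3 above D3, the extremes of the gene in block 3, and A4 above C4, those of block 4. The probes differed in size and in where the other females lay: the exon 1 probe gave A3 -0.50 and B3 0.87, whereas the exon 4 probe gave A3 0.01 and B3 -0.02. The exon 6 probe lay between, with A3 at -0.16 and B3 at 0.23. Of the 4 probes, 3 passed the female test singly.

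**Figure D3:**
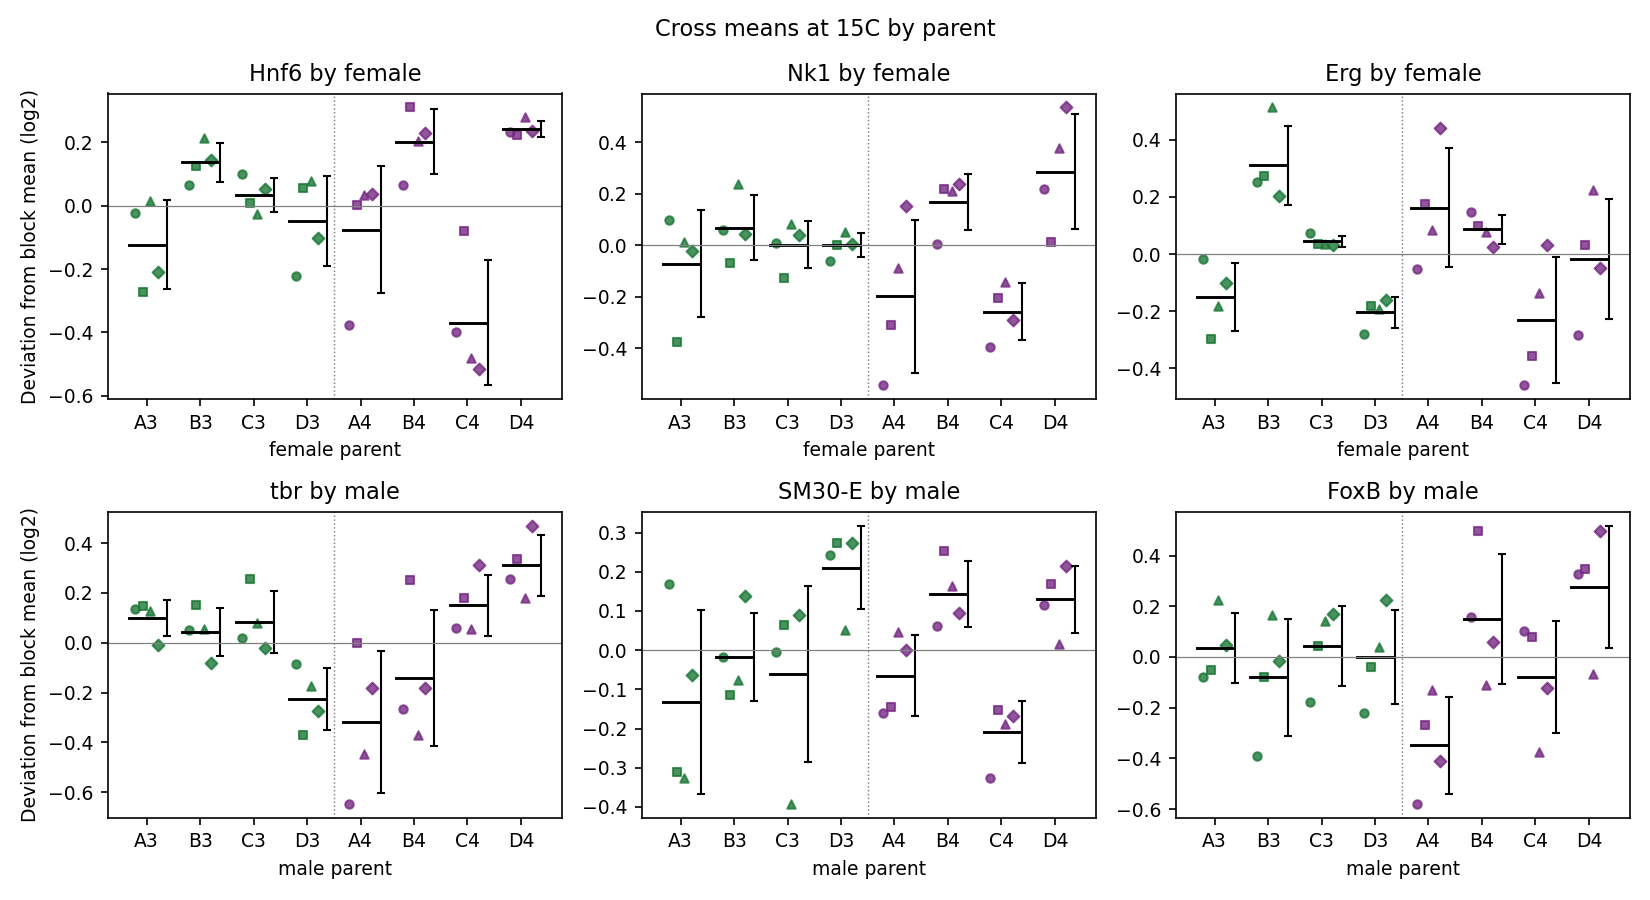
Cross values at 15C (log2 deviation from the block mean) by female for Hnf6, Nk1 and Erg and by male for tbr, SM30-E and FoxB. Marker shapes are the 4 mates in the order A to D, black lines are means of 4 crosses and error bars their SD; female C4 is low for all 3 genes of the upper row.

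The genes are described below by list, and some, such as nodal and Chordin, stand in 2 lists. Among the 11 oral ectoderm genes measured, 6 differed between females and 1 between males, against 45.9% and 9.46% of all genes, and the median female F was 4.34, against 3.01 over all genes. Besides Hnf6 and Nk1, nodal, the TGF-beta ligand that specifies the oral side, had a female F of 7.54 (adjusted p = 0.00194). All 4 crosses of female A3 were low for nodal, from -0.16 to -0.07, and all 4 of female C3 were high, from 0.09 to 0.26. Its male effect passed as well (F = 5.20, adjusted p = 0.0218), with male D4 at 0.11 and C4 at -0.13. The other genes called were gsc (goosecoid, a repressor expressed in the oral ectoderm), Lim1 (a LIM homeobox gene) and Chordin (a secreted antagonist of BMP). In gsc, females D4 and C4 differed 1.41-fold.

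Of 3 aboral ectoderm genes, Nkx22 and Dlx, both homeobox genes, differed between females (45.9% of all genes did) and none did between males (9.46%). Nkx22 had a small range, 1.18-fold between B4 and A4, but little scatter: crosses of A4 lay at -0.18, -0.17, -0.09 and -0.09 and those of B4 at 0.04, 0.10, 0.14 and 0.14. It had a female F of 8.57 (adjusted p = 0.00108). Females accounted for 51.3% of its variance over cultures. All 5 Nkx22 probes placed B4 above A4, but 1 passed the female test singly. The widest probe ranged 0.69 log2 units between females of block 4, against 0.16 for the next.

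Of the 14 skeletogenic regulators, 8 differed between females and 4 between males, against 45.9% and 9.46% of all genes, with a median F of 3.30 for females and 1.85 for males. Erg and deadringer had the highest female F of the list. For deadringer the crosses of B3 lay from 0.10 to 0.27 and those of C3 at -0.56, -0.12, -0.06 and 0.01, and C4 was lower than the other females of block 4 by -0.29 ± 0.06 (SE, adjusted p = 0.00812). In deadringer and gsc, 2 of the 34 genes, the highest and the lowest female were those of highest and lowest stage score in both blocks. Over all 74 genes this held for 3, these 2 and SM27, which was not called. The deadringer value of -0.56 was that of cross C3 x D3, where probe a of exon 1 lay at -3.81. Whether C3 was lowest for deadringer without that probe was not tested. FoxO, a forkhead gene, had a mean of 0.24 in offspring of female B4 and -0.34 in those of C4.

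Of 12 skeleton and matrix effector genes, 4 differed between females, and 1, SM30-E, between males, against 45.9% and 9.46% of all genes. The gene cyclophilin, a peptidyl-prolyl isomerase gene, had 52.5% of its variance between females and was lower in offspring of female D3 by -0.22 ± 0.04 (SE, adjusted p = 0.00292). With array medians subtracted its female effect missed the threshold (F = 2.97, adjusted p = 0.0755). Msp130, a surface protein of skeletogenic cells, passed for females (adjusted p = 0.0333) with ranges of 1.12-fold and 1.10-fold in the 2 blocks. The remaining female calls were the collagen gene SpColl-ColAlpha, with C4 lowest in block 4, and SM30-E.

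Of 11 endoderm and gut genes, 3 differed between females (45.9% of all genes did) and none between males (9.46%): APOBEC (named for a family of cytidine deaminases), brn1-2-4 (a POU-domain factor of the gut) and Blimp1-Krox (a zinc finger factor of the endomesoderm). APOBEC had a female F of 9.61 (adjusted p = 0.00084) and was higher in offspring of D4 by 0.24 ± 0.04 (SE, adjusted p = 0.00292). That difference was 0.08 without replicate 1, where it missed the threshold (adjusted p = 0.715), and 0.38 without replicate 2. Endo16, a secreted gut protein gene, lay just outside the threshold (adjusted p = 0.0529), as did Gsk-3 (0.0529) and Bra (0.0535). Just inside were delta (0.0448) and Ets1 (0.0483).

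Of 4 mesoderm and pigment cell genes, gcm, gataC and Mitf differed between females (45.9% of all genes did) and none between males (9.46%). gataC had the widest female range of the panel, 1.60-fold in block 3. Its crosses with female C3 lay at 0.31, 0.39, 0.43 and 0.51 and those with D3 at -0.43, -0.31, -0.22 and -0.14, without overlap. C3 was higher than the other females by 0.54 ± 0.11 (SE, adjusted p = 0.00455).

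Of 15 signalling genes, 7 differed between females and 2, nodal and Gsk-3, between males, against 45.9% and 9.46% of all genes. The Wnt receptor gene frizzled9 spanned 1.46-fold between females D4 and C4 and was highest in B3 and lowest in A3 in block 3. TCF, the DNA-binding partner of beta-catenin, was lower in crosses of C4, at -0.53, -0.42, -0.29 and -0.23 (C4 against the others -0.49 ± 0.09, SE, adjusted p = 0.00292). notch passed (adjusted p = 0.00955), but its signal exceeded the negative controls by 0.09 log2 units (block 3) and 0.63 (block 4). Pax2-5-6 and Ets1, also called, exceeded them by under 1 log2 unit in block 3. Of 8 other genes, Mif-7 (named for macrophage migration inhibitory factor), Cog1 and Pax2-5-6 differed between females (45.9% of all genes did) and none between males, and Cog1 spanned 1.51-fold from A4 to D4.

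Each female was then set against the other 3 of her block. Of 592 comparisons of a gene and a female, 47 passed (7.94%), 22 higher (3.72%) and 25 lower (4.22%), and of 592 for males 15 passed (2.53%), 6 higher (1.01%) and 9 lower (1.52%) (limma, adjusted over 592). Without replicate 1, 1 female contrast (B3 for Erg) and 2 male contrasts passed, and without replicate 2, 39 and 5 did. Female C4 had the most calls, 1 higher and 10 lower, and she had the lowest stage score of block 4. Female D4, with the highest stage score, had 8 higher and none lower. In block 3 the female of lowest stage score, C3, had 5 higher and 2 lower calls and lay above the block mean in 56 of 74 genes, and the female of highest score, B3, had 4 higher calls. A4 and D3 had 6 lower calls each, and B4 had 4 higher. Female A3 had 1, nodal. Among males, A4 had 5 lower calls, D4 had 3 higher, and B3 and B4 had none.

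**Figure D4:**
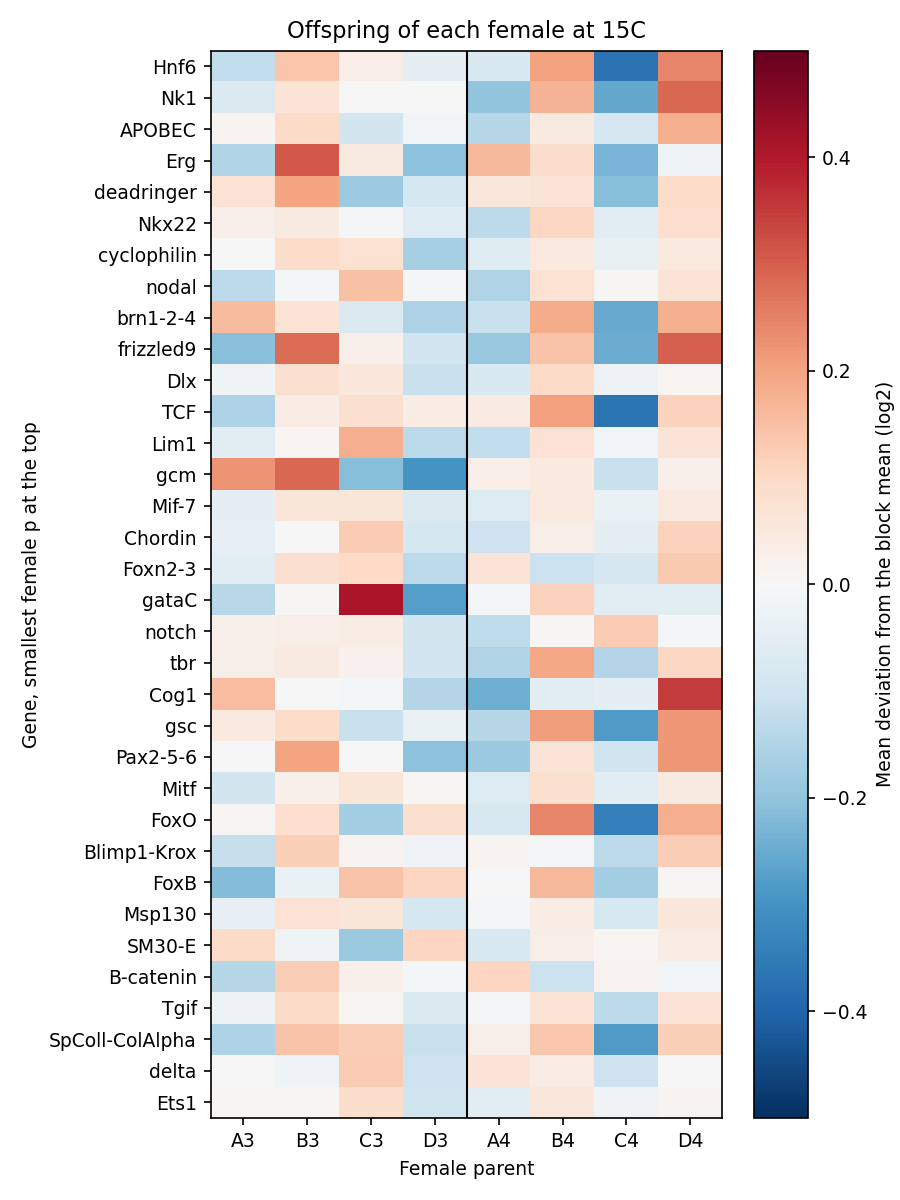
Mean log2 deviation from the block mean of the offspring of each female at 15C, for the 34 genes that differed between females, ordered by p. Colours are cut at 0.5 in either direction; female C4 is below the block mean in most rows, and female D4 is above it in most rows.

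With the stage score of the cross as a covariate, 19 of the 34 female calls passed, and the female contrasts that passed fell to 9. Hnf6, Erg, deadringer, Nkx22 and nodal were among the 19, and Nk1, APOBEC, frizzled9, gsc and Cog1 were among the 15 that did not pass. The male count was 11 with that covariate and held all 7 male calls. Stage was itself measured on the same cultures and differed between females, so stage and mother could be separated only as far as stage varied between crosses of 1 female.

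tbr had the highest male F of the panel (13.96, adjusted p = 0.000166), and males accounted for 56.7% of its variance over cultures. Crosses of male A4 lay at -0.65, -0.45, -0.18 and -0.00, and those of male D4 at 0.18, 0.26, 0.34 and 0.47. The groups did not overlap and their means differed 1.55-fold, the widest male range of the panel. In block 3, male D3 was lower than the other males by -0.30 ± 0.07 (SE, adjusted p = 0.0193), with all 4 of his crosses below 0, from -0.37 to -0.09.

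The block 4 difference lay mostly in 1 of the 6 tbr probes, probe b of exon 1. In that probe the males averaged -1.62 (A4), -0.75 (B4), 1.17 (C4) and 1.20 (D4), a range of 7.09-fold, whereas the mean of the other 5 probes ranged 1.14-fold. All 8 crosses of males C4 and D4 lay between 0.71 and 1.57. The crosses of males A4 and B4 with female B4 lay at 0.05 and 0.58, and their 6 crosses with females A4, C4 and D4 lay from -2.57 to -0.71. The 6 crosses were the lowest of the block at 12C too (-2.67 to -0.95, against -0.51 to 1.70 for the other 10) and at 18C (-2.65 to -0.76, against -0.30 to 1.70).

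In block 3 the tbr difference lay in other probes. Probe c of exon 1 was at -2.54 in the cross B3 x D3, against -0.21 to 0.53 in the other 15 crosses of the block, and this cross was at -1.67 at 12C and -2.21 at 18C. Probe d of exon 4 was at -1.14 in C3 x D3 and -0.68 in D3 x D3. Without its probe of widest male range, tbr passed the male test (F = 8.73, adjusted p = 0.00558). By its brightest probe alone, male A4 was no longer lower (0.02 against the other males, adjusted p = 0.958).

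SM30-E, encoding a protein of the spicule matrix, had a male F of 8.23 (adjusted p = 0.0043). In block 3 the crosses of male D3 lay at 0.05, 0.24, 0.27 and 0.27, and in block 4 those of male C4 at -0.33, -0.19, -0.17 and -0.15. No probe of SM30-E passed singly, and with detected probes alone the gene missed the threshold (adjusted p = 0.0979). FoxB, a forkhead gene, had a male F of 6.42 (adjusted p = 0.0145) and a range of 1.54-fold in block 4, with crosses of A4 from -0.58 to -0.13 and of D4 from -0.07 to 0.50, without overlap. Gsk-3, a kinase that marks beta-catenin for degradation, and Foxn2-3, a forkhead gene, were lowest in offspring of male A4 and highest in those of D4 in block 4, 1.29-fold and 1.23-fold apart. These positions were common in the panel and not particular to the called genes. Of all 74 genes, male D4 was the highest male of block 4 in 52 and above the block mean in 69. Male A4 was the lowest in 31. The male effect on Foxn2-3 missed the threshold with detected probes alone (limma, adjusted p = 0.218), without replicate 2 (0.534) and by the brightest probe (0.707).

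Pmar1 differed between males (F = 5.31, adjusted p = 0.0218) but did not pass for females. Crosses of male A3 lay at 0.20, 0.35, 0.37 and 0.37, and those of male B3 at -0.30, -0.23, -0.15 and -0.07. Probe a of Pmar1a-b gave male A3 0.92 and a probe filed under Pmar1c-d 0.57, and the pair of probes with equal letters gave 0.22 and 0.29. Without the probe of widest male range Pmar1 missed the threshold (adjusted p = 0.142). With that probe left out of every gene, FoxB, Gsk-3 and tbr were the male calls.

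Just outside the male threshold were Nk1 (adjusted p = 0.0514), gcm (0.0515) and gataC (0.0529). The Wnt antagonist gene Dkk, which did not pass, had the next widest male range after gcm and Pmar1 in block 3, at 1.27-fold. gataC spanned 1.48-fold between males of block 4, with the 4 crosses of male C4 at -0.48, -0.38, -0.37 and -0.24. Its exon 4 probe a ranged 2.29 log2 units between those males, against 0.57 for the next widest probe, and was at -2.92 in B4 x C4 and -2.08 in D4 x C4.

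No gene passed the test for a female-by-male effect beyond the sum of the parents (0%, smallest adjusted p = 0.846, for SpColl-ColAlpha). This was a limma moderated F test over cultures (18 df, and 31 residual df before moderation). There were 3 genes with an unadjusted p under 0.05. By the brightest probe 2 genes passed, and 1 in the quantile-normalized table. When the probes were fitted singly, a choice made after the values were seen, 83 (24.7%) passed for females, 30 (8.93%) for males and 6 (1.79%) for the female-by-male effect. The 6 were probe c of gcm exon 6 (F = 10.06, adjusted p = 2.86e-06), probe a of deadringer exon 1 (F = 8.64, adjusted p = 9.95e-06), 3 probes of tbr and probe b of gataC exon 4.

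For gcm the pattern was a combination of parents. In its exon 6 probe c the crosses C3 x B3, C3 x D3, D3 x B3 and D3 x D3 lay at -2.19, -2.31, -2.09 and -2.21, and the other 12 crosses of block 3 lay from 0.49 to 1.18. Both females gave values of 0.49 to 0.87 with males A3 and C3, and both males gave 0.49 to 0.68 with females A3 and B3. The same 4 crosses were lowest at 12C (-2.21 to -1.87, against 0.06 to 1.34) and at 18C (-2.59 to -1.49, against 0.38 to 1.30). Exon 6 probe b was lowest in these crosses too, from -1.28 to -0.93, against -0.55 to 0.87 in the others. In the mean over the 6 probes the 4 crosses lay at -0.64 to -0.54 and the others at -0.16 to 0.62, and the male range of 1.45-fold in block 3 (C3 highest, D3 lowest) included them.

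In deadringer, 1 cross stood apart. Its exon 1 probe a was at -3.81 in C3 x D3, against -0.31 to 0.64 in the other crosses of block 3, and the cross was at -3.17 at 12C and -3.42 at 18C. The same cross was the lowest of block 3 in the mean of the deadringer probes, at -0.56. The cause of these single-probe patterns was not tested.

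**Figure D5:**
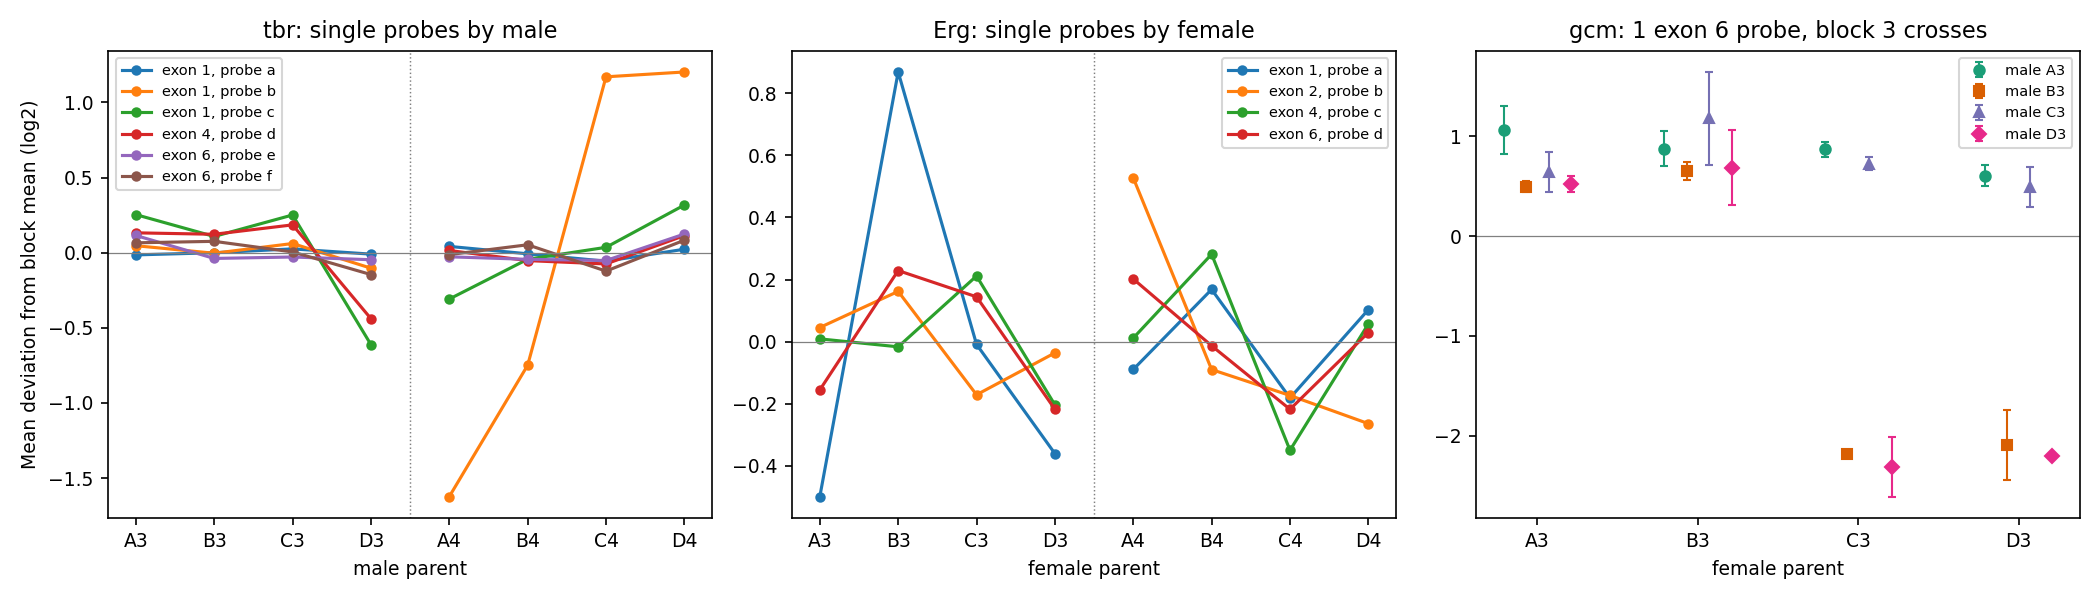
Left and middle, mean log2 deviation by male for the 6 tbr probes and by female for the 4 Erg probes, lettered as the sequences above. Right, values of gcm exon 6 probe c in the 16 crosses of block 3, with bars from the lower to the higher of 2 cultures; the crosses of females C3 and D3 with males B3 and D3 lie near -2.

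Called genes differed in how many of their probes passed singly. Of the 34 genes called for females, 20 had at least 2 probes that passed singly, 8 had 1 and 6 had none, among them Msp130, SM30-E and FoxB. Of the 7 genes called for males, only tbr had 2, and SM30-E and nodal had none. Genes that were not called could have as many. FoxO, Hox11-13b, Wnt8, deadringer and gcm, not called for males, had 2 probes that passed the male test. Bra, Endo16, G-cadherin, IrxA, Lefty and Wnt8, not called for females, had at least 2 that passed the female test. Over all probes, 24.7% passed singly for females and 8.93% for males. Without the probe of widest female range in each gene, 30 genes passed for females, 27 of them among the 34.

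The same parents were crossed at the other temperatures. On each plate the 12C cultures lay in rows A to C, the 15C cultures mostly in rows F to H and the 18C cultures mostly between them. Sampling times differed between temperatures too. Differences between temperatures thus cannot be told apart from those of plate row or sampling time. Female effects passed for 16 genes at 12C (21.6%) and 11 at 18C (14.9%), and male effects for 7 (9.46%) and 12 (16.2%). Of the 34 female calls at 15C, 7 were called at 12C, 6 at 18C and 1, Erg, at all 3 temperatures. Of the 7 male calls, tbr and Pmar1 were called at all 3. The difference in itself, 15C less the mean of 12C and 18C, passed for no gene (0% for females and for males; smallest adjusted p = 0.993 for Lhx2 in females and 0.997 for Dkk in males, limma). In each, 1 gene had an unadjusted p under 0.05. Across the 34 genes, the highest female of block 3 was the same animal at 12C in 18 genes and at 18C in 22, and that of block 4 in 16 and 18, while over all 74 genes the counts were 35, 40, 37 and 42.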

How the data were processed

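Cultures were assigned to block, female, male, replicate and temperature by the labels. The deposited normalized values are log2, centred within a plate by the authors, by a method that is not given in the labels or headers, and they equal the deposited series matrix. The submitters' processing notes name BeadStudio. A deposited non-normalized table was read as log2 signal from its range and used for detection (above the 95th percentile of 27 negative controls of the array in over 50% of 15C cultures) and for alternatives. It held 1 column of no sample, not used. Probes were averaged per gene and cultures per cross. Of 74 gene names, 28 matched RefSeq names, and the files' names were kept.

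Parent effects were tested with limma on 32 cross means, female-by-male effects on 63 cultures, and differences from 12C and 18C on cross differences. All were Benjamini-Hochberg adjusted over 74 genes (592 for contrasts) at 0.05. Stage score, its SD and array median were compared by permuting cross values among crosses of a block that share the other parent (100000 resamples), adjusted over 6 tests. Variance shares came from lme4. The scripts were tested on simulated data. The gene fits ran in R 4.3.3 with limma 3.58.1 and lme4 1.1.37. The permutations used numpy 2.4.6, under python 3.11.15, tables pandas 2.3.3 and figures matplotlib 3.10.9.

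The samples, gene lists, tests and alternatives were chosen with earlier results of these data known. Gene lists were matched to the panel by name. Named genes were up to 15 with the smallest p among calls per sex, the top call per parent, the 3 widest ranges per block and sex, up to 3 per list and, where none passed, the gene of smallest p. Genes just outside a threshold, gsc, and the single-probe patterns were named after their values were seen. Replicate numbers did not pair samples: the difference of replicate 1 less replicate 2 correlated between crosses with a median of 0.04 in block 3 and 0.02 in block 4.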

Additional observations from a re-analysis of the deposited data

Results flagged for a closer look

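In 5 of 30 groups of 4 crosses, 1 cross lay far from the other 3 by Dixon's criterion. The groups were the stage scores of the crosses of each parent and, for each parent with calls, the called gene of smallest p. Chance meets the criterion in about 1 group in 20 where groups are independent and not chosen by their values. Here the genes were chosen from these data and each cross entered 2 stage groups, so that rate does not strictly hold. The stage score of cross C4 x D4 was 0.190, against 0.270 to 0.286 for the other crosses of female C4; this cross had a single culture. APOBEC was at 0.30 in the cross D4 x D4, against 0.12 to 0.15 in the other crosses of female D4. Pmar1 was at 0.20 in A3 x A3, against 0.35 to 0.37 in the other crosses of male A3. gcm was at 0.62 in B3 x C3, against 0.17 to 0.23 in the other crosses of male C3. SM30-E was at 0.0523 in C3 x D3, against 0.24 to 0.27 in the other crosses of male D3.

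The non-normalized table held 3 genes that the normalized table did not, and these were above the negative controls in the 15C cultures. Hmx lay 2.72 log2 units above them in block 3 and 4.66 in block 4, Kakapo 2.54 and 4.00, and RBM8A 4.04 and 5.51. They entered no parent test.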

How the results depend on the processing

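Counts are given in the order genes by female, genes by male, female contrasts, male contrasts; the reported counts are 34, 7, 47 and 15. They were 20, 11, 33 and 20 with array medians removed, and 0, 1, 0 and 1 with 15C plate column means removed (each a mean of few cultures). Plate row effects were also fitted beside the parents on single cultures and subtracted before the tests, which gave 48, 19, 81 and 35. Those tests charged no df for the rows, which can raise the counts. The counts were 19, 11, 9 and 20 with stage score as a covariate, 26, 0, 35 and 1 in block 3 alone, and 7, 2, 5 and 3 in block 4 alone. Without the cross C4 x D4 they were 29, 10, 40 and 24. Without replicate 1 or replicate 2 they ranged from 1 to 24, 1 to 6, 1 to 39 and 2 to 5. Leaving out the offspring of 1 parent at a time, the gene counts ranged from 20 (without male D3) to 45 (without female B4) for females and from 1 (without female A4) to 13 (without male B4) for males. Fits of the 63 cultures with the cross as a random block gave 46, 11, 75 and 26 with a replicate block, and 45, 13, 70 and 27 with none. The correlation between cultures of a cross in these fits was negative, -0.107 with the replicate block and -0.131 with none. The brightest probe gave 28, 10, 37 and 12, with 14 of the 34 female and 2 of the 7 male calls (tbr and Gsk-3) among them, and quantile normalization 25, 7, 51 and 11, with 19 and 2 (tbr and SM30-E). Choices added after the data were seen gave 35, 12, 52 and 19 without the 6 most distant arrays, and 15, 10, 14 and 18 with column means over the whole plate removed; without the probe of widest range 31 female contrasts, 3 genes by male and 6 male contrasts passed. The female-by-male count was 2 by the brightest probe, 1 after quantile normalization and 0 with the replicate block. For male A4 against the others, tbr reversed to 0.0193 by the brightest probe. The female F for stage score was 4.27 without replicate 1, 12.08 without replicate 2 and 6.87 to 21.03 without single parents. The female F for array median, reported as 4.70, missed the threshold at 5.35 in block 3 alone, 4.38 in block 4 alone, 1.45 for the non-normalized median, and 1.65 and 3.98 without replicate 1 or 2. Without single parents it ran from 3.24 to 8.04 and missed the threshold in 9 of 16 fits. The male F for array median ran from 0.799 to 6.20 without single parents and passed only without male B4. The differences from 12C and 18C gave 0 genes in every alternative. The causes of these changes were not tested.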
